A study of Mus musculus with 6 samples.

Results

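The 74 mitochondrial ribosomal protein genes measured here, taken by symbol, all encode proteins of the mitochondrial ribosome, or mitoribosome, except Mrps36. None of the 74 genes passed the test for a difference between ionomycin-activated and naive mast cells. They are the array rows whose platform annotation names exactly 1 gene and whose symbol starts with Mrpl or Mrps followed by a number, with at most a letter a, b or c after it, 74 genes of 30102 genes in all. Each had 1 row of its own. Every one of the 74 gave a mean log2 signal above the background level of 6.07, which is the 95th percentile of 1418 chemosensory receptor genes. The lowest mean over the 6 arrays was 6.66 and the highest 9.65.

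BMMCs, the bone marrow derived mast cells used, were grown from the femurs of C57BL/6J mice and matured for 6 weeks in medium with interleukin 3 and stem cell factor. Ionomycin is a calcium ionophore, which raises calcium inside mast cells and so triggers degranulation. The ionomycin group (3 arrays) was held for 1 h in buffer with ionomycin at 1 µg/mL, and the naive group (3 arrays) was held in the same buffer without it. Both groups were then washed and kept in culture medium for 3 h, so that RNA was taken at 4 h, and the study asked which transcripts differ at that later time. No label says that the replicates of a group came from separate cultures or mice, so each p-value measures only how these samples vary, and that variation may be technical.

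Mitoribosomes translate the few proteins encoded by mitochondrial DNA, all of them subunits of the respiratory chain and ATP synthase. Their own proteins are encoded in the nucleus, made in the cytosol and imported, and they assemble with mitochondrial rRNA into a large and a small subunit. Some of these proteins have counterparts in bacterial ribosomes, and others are found in mitochondria alone. Mast cells are known to draw on mitochondrial respiration and mitochondrial calcium uptake when they degranulate.

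All 9 mast cell markers measured, among them Kit and Fcer1a, had mean log2 signals between 11.5 and 14.2, and the 8 macrophage markers had 7.01 to 8.50. Replicate 1 stood apart in both groups: the first principal component of the array values, with 52.6% of the variance, put ionomycin replicates 1, 2 and 3 at -21.2, 18.5 and 21.9 and naive replicates 1, 2 and 3 at -48.0, 13.0 and 15.8. Of the 3 basophil markers, all above background, Mcpt8 and Prss34 were highest in replicate 1 of both groups. Mcpt8 had 10.6, 9.14 and 9.11 in ionomycin replicates 1, 2 and 3, against 10.4, 9.20 and 9.03 in naive replicates 1, 2 and 3, while Cd200r3 followed the group, with a difference of -0.29. Group differences without overlap were also seen in 5 of the 9 mast cell markers, Hdc higher (1.04) and Fcer1a, Gata2, Kit and Ms4a2 lower (-0.05 to -0.62), in 5 of 5 stromal markers (0.07 to 0.39) and 3 of 5 T and B cell markers, all higher, in 2 of 8 macrophage and 1 of 7 neutrophil markers, higher, and in 0 of 3 erythroid markers. Over all genes, 26.2% showed no overlap (18.9% higher, 7.31% lower), and 30.1% of genes above background did. Only 4 of 5 stromal, 3 of 5 T and B cell, 5 of 7 neutrophil and 2 of 3 erythroid markers were above background. Of the separated markers, Cdh5 and Cd4 were below it, with means of 5.76 and 5.24. The stromal marker with the difference of 0.39 was Pecam1, whose mean of 11.5 lay in the range of the mast cell markers. The means of the other stromal markers ran from 5.76 to 7.95. No marker passed the adjusted threshold in limma. The part of other cell types in the values below was not tested. In RNA from a whole culture, fewer cells of a type and less RNA per cell cannot be told apart.

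By limma with Benjamini-Hochberg adjustment over all genes, 0 of the 74 members were higher and 0 lower at an adjusted p under 0.05, beside 105 of all 30102 genes (0.349%), 87 of them higher and 18 lower. The lowest adjusted p of a member was 0.256 in limma, for Mrpl41. The count stayed at 0 with the replicate number as a block (0.505% of all genes called), without both replicate 1 arrays (2.83%), under each of the other settings computed, and with symbols updated through gene identifiers, which add Mrpl58 as a 75th gene. Over the same settings the lowest adjusted p of any member in limma ran between 0.0984, with replicate 1 set against the others as a block of 2 levels, and 0.518. The count over all genes depended on single arrays: leaving out ionomycin replicate 1, 2 or 3 gave 35, 1 or 7, and leaving out naive replicate 1, 2 or 3 gave 150, 13 or 9.

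The measured differences were small. They ran between -0.24 for Mrpl22, which is 1.18-fold lower in ionomycin-treated cells, and 0.19 for Mrps28, which is 1.14-fold higher. Mrps28 had log2 signals of 7.81, 7.51 and 7.50 in ionomycin-treated cells, against 7.61, 7.43 and 7.19 in naive cells, so that its groups overlapped. For 68 of the 74 members (91.9%) the 95% interval of the difference lay inside a 1.5-fold change in either direction, beside 84.1% of all genes and 77.3% of genes above background. The other 6 intervals reached past 1.5-fold on the low side, and that of Mrpl42 also on the high side. These 6 genes, Mrpl42, Mrps27, Mrpl37, Mrps21, Mrps22 and Mrpl13, were singled out after their values were seen, and all 6 had their highest signal in replicate 1 of both groups.

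**Figure D1:**
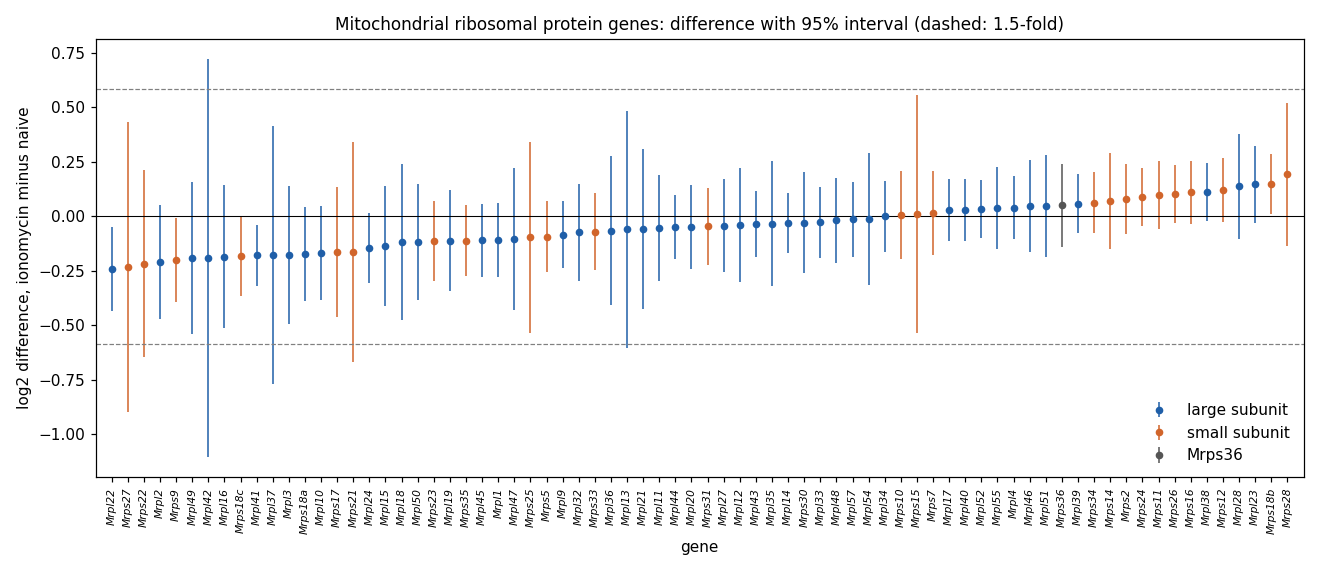
Log2 difference (ionomycin minus naive) of each of the 74 mitochondrial ribosomal protein genes, ordered by size, with its 95% interval from limma over 3 arrays a group; the colours mark the subunit and the dashed lines a 1.5-fold change. The points lie between -0.24 and 0.19, and 68 of the 74 intervals stay between the dashed lines.

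At an unadjusted p under 0.05, limma gave 1 member higher (Mrps18b) and 3 lower (Mrpl22, Mrpl41 and Mrps9). That is 5.41% of the members, against 15.6% of all genes (10.2% higher, 5.44% lower) and 20.7% of genes above background. With the replicate number as a block, which assumes that same-numbered samples are pairs, the counts were 2 higher and 8 lower. The share of all genes was then 25.4% (16.0% higher, 9.41% lower). Single arrays moved these counts: leaving out naive replicate 3 gave 8 lower members, naive replicate 2 gave 1 and ionomycin replicate 3 gave 0, and the 1 higher member was lost without ionomycin replicate 2 or 3 or naive replicate 2 or 3.

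The median log2 difference of the members was -0.05, with 25 above 0 and 49 below it, beside a median of 0.05 for all genes and 0.05 for genes above background. Centring each array on its median moved all genes by about the same step, to -0.01, and the members to -0.11, with 12 above 0 and 62 below. Quantile normalization gave -0.06 for the members and 0.01 for all genes. The sign of the members' median depended on naive replicate 1: without it the median was 0.01, with 41 above 0 and 33 below. The median was -0.09 when ionomycin replicate 1 or naive replicate 3 was left out, -0.03 and -0.02 when ionomycin replicate 2 or 3 was, and -0.04 without both replicate 1 arrays. The members' median signal on each array was 8.19, 8.14 and 8.08 in ionomycin replicates 1, 2 and 3, against 8.38, 8.21 and 8.12 in naive replicates 1, 2 and 3. The groups overlapped in this median, and within each number the ionomycin array lay below the naive one.

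Among the 48 large-subunit members the median difference was -0.05, with 11 above 0 and 37 below. Among the 25 small-subunit members it was 0.004, with 13 above 0 and 12 below, and it turned to -0.06 after array centring. Left out one at a time, the arrays gave medians between -0.11 and 0.004 for the large subunit and between -0.05 and 0.08 for the small one, the upper end without naive replicate 1 in both. The large-subunit proteins with bacterial counterparts (29 genes) had a median of -0.06, and those counted as found in mitochondria alone (19 genes, with Mrps18a) one of -0.03. In the small subunit the medians were 0.01 over 15 genes with bacterial counterparts and -0.08 over 10 genes counted as found in mitochondria alone, with Mrps18b. The difference between the subunits was not tested.

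The subunits were assigned by the protein's place in the mammalian mitoribosome and not by its symbol, which misleads for some. Mrps30 encodes a protein of the large subunit despite its name. Its log2 signals were 8.11, 7.97 and 7.81 in ionomycin-treated cells, against 8.08, 8.0 and 7.90 in naive cells, and the groups overlapped (difference -0.03 ± 0.09 SE). Mrps36 encodes a protein now known as part of the 2-oxoglutarate dehydrogenase complex of the citric acid cycle rather than of the ribosome, so it is counted in neither subunit. It had 7.53, 7.31 and 7.37 in ionomycin-treated cells, against 7.41, 7.37 and 7.27 in naive cells, again with overlap (0.05 ± 0.08 SE).

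Promoter sequences were set beside the members because transcription factors of nuclear genes for mitochondrial proteins have well known short motifs. RefSeq promoter windows of build GRCm38.p6, with 250 bases before the start of a gene and 50 after it, were found for 65 members in 71 windows, and 9 members had none. The motif CCGGAAG, the core bound by ETS factors such as GABPA, was found on either strand in 24 of the 71 windows (33.8%), against 15.2% of windows of coding genes above background and 8.86% of all 32851 windows. GCGCA and GCGC with any 1 base between them, the motif of NRF1, was found in 12 (16.9%), against 8.52% and 4.60% in those same sets. AAGATGGCG, a core of YY1 sites, was found in 8 (11.3%), against 2.51% and 1.40%. TATAAA, the TATA box, was found in 5 (7.04%), against 7.80% and 13.6%. None of these motifs contains another. At least 1 of the first 3 lay in 38 of the 71 windows (53.5%), against 23.6% and 13.6%. A match describes the letters of a window and is not shown here to be a bound site.

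As examples, the bases just before the start are shown for 3 members that hold a motif match there. Mrpl22 had the lowest difference, Mrps26 a positive one and Mrpl57 one near 0. These 3 do not stand for all members, as a match lay in 38 of the 71 windows. The stretches are chr11:58171544-58171663, chr2:130563637-130563756 and chr14:57826119-57826238, all on the plus strand of GRCm38.p6 and taken from RefSeq. Each has 120 bases, read 5′ to 3′ up to the base before the start. Capitals mark a match to CCGGAAG on either strand in the first 2 and to the NRF1 motif in the third.
Mrpl22: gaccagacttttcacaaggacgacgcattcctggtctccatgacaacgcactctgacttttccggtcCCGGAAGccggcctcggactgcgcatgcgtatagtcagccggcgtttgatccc
Mrps26: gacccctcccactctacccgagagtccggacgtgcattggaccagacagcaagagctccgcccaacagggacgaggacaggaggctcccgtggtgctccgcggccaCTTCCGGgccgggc
Mrpl57: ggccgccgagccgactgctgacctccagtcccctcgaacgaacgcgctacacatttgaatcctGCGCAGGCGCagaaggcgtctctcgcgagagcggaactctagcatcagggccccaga
The median log2 difference was -0.04 for the 24 members with the ETS core and -0.05 for the 41 without it, and -0.05 both for the 12 with the NRF1 motif and for the 53 without it. For the 8 members with the YY1 core it was -0.12, against -0.05 for the 57 without, a difference that was not tested. The differences ran from -0.23 to 0.10 with this core and from -0.24 to 0.15 without it. Mrps27, Mrpl42 and Mrpl37, given above for intervals past 1.5-fold and highest signals in replicate 1, hold this core.

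Many members also start close to a gene that runs the opposite way. A divergent start within 1000 bases was found for 25 of the 65 members (38.5%), against 17.1% of coding genes above background and 12.2% of all genes in the table. The stretches between 2 pairs are shown, a pair of 2 members and a pair with a gene of mitochondrial DNA. Mrps11, of the small subunit, and Mrpl46, of the large one, face away from each other across 41 bases (chr7:78783090-78783130, plus strand), and Mrpl43 lies 115 bases (chr19:45006443-45006557, minus strand) from Twnk, the helicase that replicates mitochondrial DNA. They are given whole, from RefSeq GRCm38.p6, 5′ to 3′ toward the start of the ribosomal gene named, with CCGGAAG in capitals.
Mrps11: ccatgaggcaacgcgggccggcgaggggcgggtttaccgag
Mrpl43: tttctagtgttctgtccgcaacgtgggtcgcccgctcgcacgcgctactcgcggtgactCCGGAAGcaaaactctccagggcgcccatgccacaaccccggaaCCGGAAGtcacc
The Mrpl43 stretch holds 2 ETS cores and the Mrps11 stretch none. Mrps11 and Mrpl46 differed by 0.10 and 0.05 on the log2 scale, and Mrpl43 and Twnk by -0.04 and -0.09. Mrps12 starts 146 bases from Sars2, the mitochondrial seryl-tRNA synthetase, and they differed by 0.12 and 0.10. Of the 23 partners measured, 0 passed the adjusted threshold in limma. The partner with the largest difference was Pnpla7, a lysophospholipase whose start lies 934 bases from that of Mrpl41; it was singled out after its values were seen, and its difference was -0.69 (limma, adjusted p = 0.0680).

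For 12 of the 74 members (16.2%) no array of one group overlapped with the other, 6 with higher and 6 with lower signals in ionomycin-treated cells, beside 26.2% of all genes (18.9% higher, 7.31% lower) and 30.1% of genes above background. All 6 higher ones lost this separation after array centring, where 0 were higher and 12 lower. After quantile normalization, 8 members were higher and 9 lower without overlap. The share of all genes without overlap was not counted under either setting. The values of the 12 members without overlap in the deposited values follow, and none passed the test.

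Mrpl22 encodes a large-subunit protein that lines the exit tunnel of the nascent chain. Its log2 signals were 7.66, 7.69 and 7.59 in ionomycin-treated cells, against 7.97, 7.95 and 7.74 in naive cells. All 3 ionomycin arrays lay below all 3 naive ones, most narrowly below naive replicate 3. The difference was -0.24 ± 0.08 (SE), with a 95% interval of -0.44 to -0.05 and an adjusted p of 0.263 in limma. With the replicate block the adjusted p was 0.127.

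Mrpl41, a large-subunit protein found in mitochondria alone and also studied for a role in apoptosis, had 6.74, 6.76 and 6.73 in ionomycin-treated cells, against 6.98, 6.93 and 6.86 in naive cells. The ionomycin arrays lay within 0.03 of each other and below every naive array. The difference was -0.18 ± 0.06 (SE; limma, adjusted p = 0.256). Mrpl24, of the large subunit and with a bacterial counterpart, had 9.33, 9.42 and 9.40 in ionomycin-treated cells, against 9.43, 9.56 and 9.60 in naive cells. Its separation was narrow, with 0.02 between the closest arrays of the groups, and its difference was -0.15 ± 0.07 (SE; limma, adjusted p = 0.338).

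Mrps9, a small-subunit protein with a bacterial counterpart, had 8.15, 8.25 and 8.26 in ionomycin-treated cells, against 8.56, 8.36 and 8.34 in naive cells. Naive replicate 1 was the highest and ionomycin replicate 1 the lowest array, and the other numbers lay closer together. The difference was -0.20 ± 0.08 (SE; limma, adjusted p = 0.306). Mrps35, a small-subunit protein found in mitochondria alone, had 7.02, 7.18 and 7.14 in ionomycin-treated cells, against 7.19, 7.28 and 7.20 in naive cells. Its groups were 0.01 apart at the closest, and its difference was -0.11 ± 0.07 (SE; limma, adjusted p = 0.423).

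Mammals have 3 genes related to the bacterial small-subunit protein S18, and their products occupy separate places in the mitoribosome. In the split by bacterial counterpart, Mrps18c was counted with the bacterial kind. Mrps18a and Mrps18b were counted with proteins found in mitochondria alone, although they are related to S18. Mrps18c, whose product takes the place of the bacterial protein, had 7.78, 7.76 and 7.62 in ionomycin-treated cells, against 8.0, 7.83 and 7.88 in naive cells. Mrps18b, also of the small subunit, had 8.98, 9.04 and 9.03 in ionomycin-treated cells, against 8.88, 8.91 and 8.81 in naive cells. Mrps18a, whose product sits in the large subunit, had 7.96, 7.97 and 7.85 in ionomycin-treated cells, against 8.24, 8.09 and 7.95 in naive cells. The groups of Mrps18c and Mrps18b did not overlap, with ionomycin arrays lower for the first and higher for the second, while those of Mrps18a overlapped. The differences were -0.18 ± 0.08 for Mrps18c, 0.15 ± 0.06 for Mrps18b and -0.17 ± 0.09 for Mrps18a (SE), with adjusted p-values in limma of 0.322, 0.299 and 0.370. A second row that names Mrps18b beside Gm16279, left out of the comparisons, had the opposite sign (-0.10), with overlap between the groups.

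Mrps12 encodes a protein of the decoding centre. It had 8.78, 8.76 and 8.73 in ionomycin-treated cells, against 8.64, 8.71 and 8.57 in naive cells. Every ionomycin array lay above every naive one, by 0.02 at the closest, with a difference of 0.12 ± 0.06 (SE; limma, adjusted p = 0.362). Mrps26, a small-subunit protein found in mitochondria alone, had 8.93, 8.83 and 8.87 in ionomycin-treated cells, against 8.77, 8.81 and 8.75 in naive cells. Mrps11, with a bacterial counterpart, had 7.67, 7.51 and 7.55 in ionomycin-treated cells, against 7.49, 7.50 and 7.45 in naive cells. Mrps24, also with a bacterial counterpart, had 9.16, 9.12 and 9.18 in ionomycin-treated cells, against 9.07, 9.11 and 9.02 in naive cells. In these 3 genes naive replicate 2 came within 0.03 of the lowest ionomycin array, and the differences were 0.10, 0.10 and 0.09 (limma, adjusted p = 0.390, 0.467 and 0.441). The sole large-subunit member of the higher set was Mrpl38, found in mitochondria alone, with 8.82, 8.82 and 8.85 in ionomycin-treated cells, against 8.76, 8.72 and 8.67 in naive cells. Its ionomycin arrays were the tighter group, and the difference was 0.11 ± 0.05 (SE; limma, adjusted p = 0.354).

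**Figure D2:**
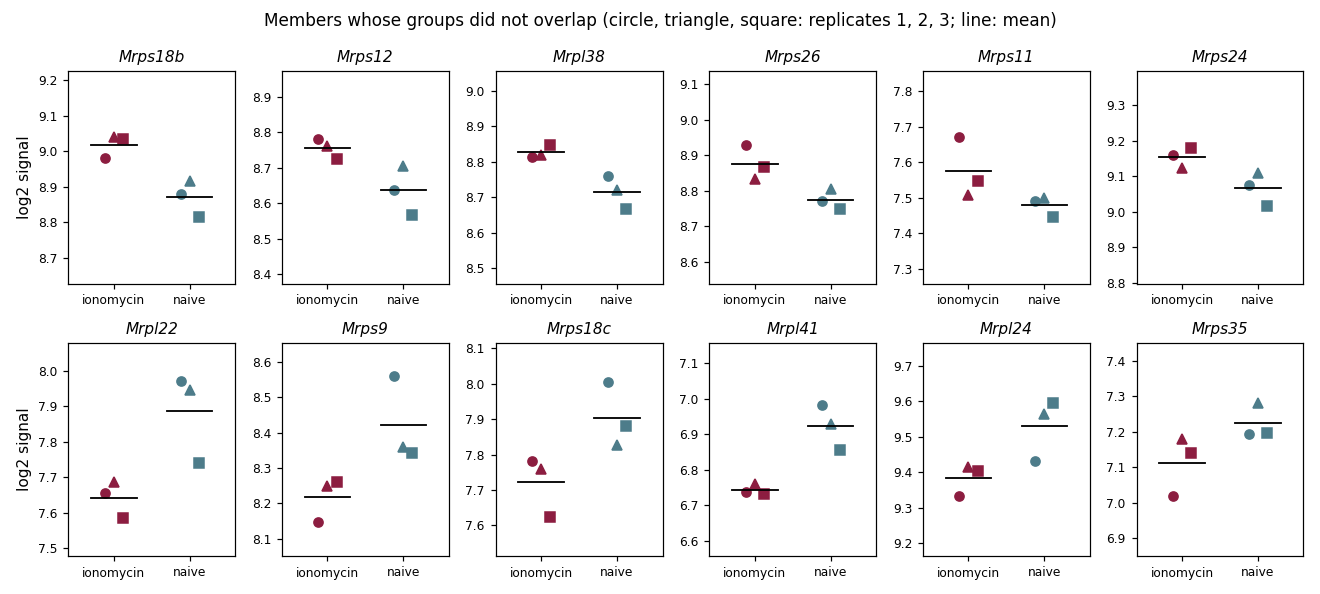
Log2 signal of the 12 mitochondrial ribosomal protein genes whose groups did not overlap, ionomycin left and naive right, with replicates 1, 2 and 3 as circle, triangle and square and a line at the group mean; each panel has its own axis. The upper row holds the 6 genes with higher and the lower row the 6 with lower ionomycin signals, and 0 of the 12 passed the adjusted test. The separation of the upper row was lost after array centring, while quantile normalization gave 8 higher and 9 lower members without overlap.

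The members with the brightest rows were Mrps23 of the small subunit and Mrpl39, Mrpl42 and Mrpl57 of the large one, all found in mitochondria alone. Signals of different rows depend on their probes, so this order does not rank RNA amounts. Mrps23 had 9.61, 9.62 and 9.55 in ionomycin-treated cells, against 9.84, 9.67 and 9.61 in naive cells. Mrpl39 had 9.63, 9.59 and 9.62 in ionomycin-treated cells, against 9.62, 9.53 and 9.51 in naive cells. Mrpl57 had 9.63, 9.48 and 9.43 in ionomycin-treated cells, against 9.50, 9.57 and 9.50 in naive cells. The groups of all 3 overlapped, with differences of -0.11, 0.06 and -0.01.

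The dimmest rows were those of Mrpl33, with a bacterial counterpart, Mrpl41, given above, and the small-subunit genes Mrps25 and Mrps31, both found in mitochondria alone. Mrpl33 had 6.57, 6.70 and 6.66 in ionomycin-treated cells, against 6.58, 6.70 and 6.73 in naive cells. Mrps31 had 7.15, 7.21 and 7.06 in ionomycin-treated cells, against 7.10, 7.18 and 7.28 in naive cells. Mrps25 had 7.24, 6.98 and 6.95 in ionomycin-treated cells, against 7.55, 7.02 and 6.90 in naive cells. All 3 overlapped between the groups, and in Mrps25 both replicate 1 arrays lay above the rest. Their differences were -0.03, -0.05 and -0.10. The row of Mrpl33 carries several gene identifiers, as does that of Mrpl48.

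Differences nearest to 0 were those of Mrpl34 of the large subunit and Mrps10 and Mrps15 of the small one, all with bacterial counterparts. Mrpl34 had 8.68, 8.54 and 8.50 in ionomycin-treated cells, against 8.58, 8.59 and 8.55 in naive cells, and its 95% interval ran from -0.16 to 0.16. Mrps10 had 8.06, 8.03 and 8.03 in ionomycin-treated cells, against 8.20, 7.96 and 7.94 in naive cells. Mrpl12, the stalk protein to which translation factors bind, had 8.22, 8.08 and 8.09 in ionomycin-treated cells, against 8.37, 8.17 and 7.98 in naive cells. Mrps10 and Mrpl12 overlapped between the groups, with 95% intervals of -0.20 to 0.21 and -0.30 to 0.22.

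The widest spread within a group came from replicate 1. Mrpl42, a large-subunit protein found in mitochondria alone, had 10.2, 9.18 and 9.07 in ionomycin-treated cells, against 10.3, 9.47 and 9.30 in naive cells. Replicate 1 stood 1.08 above the mean of the other replicates in the ionomycin group and 0.89 above it in the naive group, and within each number the ionomycin array was the lower. The difference was -0.19 ± 0.38 (SE; limma, adjusted p = 0.807, or 0.177 with the replicate block), and leaving out 1 array gave values between -0.55 (without ionomycin replicate 1) and 0.10 (without naive replicate 1), with the sign also turned without ionomycin replicate 3 (0.02). Mrps15 had 9.53, 8.93 and 8.97 in ionomycin-treated cells, against 9.52, 8.93 and 8.94 in naive cells. Within each number its arrays differed by 0.03 or less, and its group difference was 0.01 ± 0.23 (SE). Mrps27, a small-subunit protein of the pentatricopeptide repeat family, had 7.97, 7.71 and 7.62 in ionomycin-treated cells, against 8.64, 7.70 and 7.66 in naive cells. Its difference of -0.23 ± 0.27 (SE) came from number 1, where the arrays differed by -0.67, against 0.01 and -0.04 at numbers 2 and 3.

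Replicate 1 held the highest signal of both groups for 37 of the 74 members (50%), against 18.2% of all genes and 25.1% of genes above background. The share was 62 of 82 (75.6%) among respiratory chain subunits and 3 of 38 (7.89%) among cytosolic ribosomal proteins, and these differences were not tested. The median over members of replicate 1 minus the mean of replicates 2 and 3 was 0.09 in the ionomycin group and 0.16 in the naive group, against -0.03 and -0.07 over all genes. Among members with bacterial counterparts 26 of 44 had replicate 1 highest in both groups, and among those counted as found in mitochondria alone 10 of 29. Within the replicate numbers 1, 2 and 3 the median difference of the members was -0.08, -0.05 and -0.0006. The difference had the same sign at all 3 numbers for 37 members (50%), beside 52.5% of all genes and 58.6% of genes above background.

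**Figure D3:**
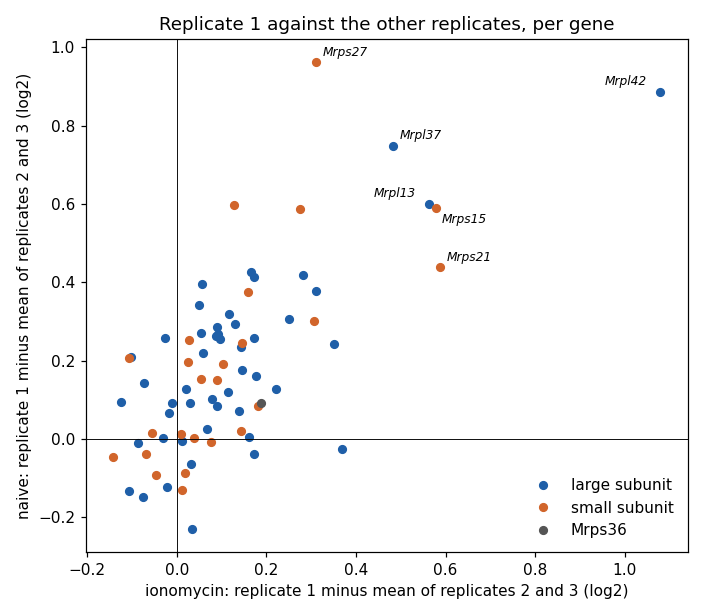
For each of the 74 genes, replicate 1 minus the mean of replicates 2 and 3 on the log2 scale, in the ionomycin group (horizontal axis) and in the naive group (vertical axis). Most points lie to the upper right of 0, with medians of 0.09 and 0.16, and Mrpl42 and Mrps27 lie farthest out.

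The other genes of mitochondrial translation were taken from lists by role. None of the 89 genes measured on the 6 lists passed the adjusted threshold in limma. Of 5 mitoribosome proteins with other names, the median difference was -0.11. Dap3, a GTP-binding protein of the small subunit, had 8.42, 8.30 and 8.20 in ionomycin-treated cells, against 8.49, 8.64 and 8.48 in naive cells. Its ionomycin arrays were all lower, with a difference of -0.23 ± 0.08 (SE; limma, adjusted p = 0.288). Gadd45gip1, of the large subunit, overlapped between the groups (0.06 ± 0.08 SE). Of 26 assembly factors the median was -0.05, and 1 was lower at an unadjusted p under 0.05 (3.85%, beside 15.6% of all genes). This was Nsun4, which methylates the small-subunit rRNA, with a difference of -0.33 ± 0.13 (SE; limma, adjusted p = 0.301). Dhx30, an RNA helicase of assembly, overlapped between the groups (-0.19 ± 0.09 SE).

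Of 15 mitochondrial translation factors, all above background, 14 had lower mean signals in ionomycin-treated cells, and the median difference was -0.13. Lower means were seen in 35.4% of all genes and 41.4% of genes above background. In 7 of the 15 the groups did not overlap, all with lower ionomycin signals, beside 7.31% of all genes. At an unadjusted p under 0.05, limma gave 6 lower and 0 higher, beside 5.44% and 10.2% of all genes. Of the 18769 genes above background, 2030 were lower without overlap. At that p, 1574 of them were lower and 2309 higher. Gfm2, which recycles ribosomes after termination, had 8.10, 8.12 and 8.11 in ionomycin-treated cells, against 8.35, 8.35 and 8.25 in naive cells. Guf1, a GTPase that binds the mitoribosome during elongation, had 7.10, 7.04 and 7.0 in ionomycin-treated cells, against 7.53, 7.23 and 7.36 in naive cells. Their ionomycin arrays were tight and below every naive array, with differences of -0.21 ± 0.06 and -0.33 ± 0.09 (SE; limma, adjusted p = 0.208 and 0.211). With a block of 2 levels, replicate 1 against the others, Guf1 reached an adjusted p of 0.0480 in limma. This fit, chosen after seeing the data, called 4.72% of all genes.

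Of 19 mitochondrial tRNA synthetases and their partners, 16 had lower mean ionomycin signals, beside 35.4% of all genes and 41.4% of genes above background. The median difference was -0.14. Without overlap between the groups, 6 were lower and 2 higher, beside 7.31% and 18.9% of all genes. At an unadjusted p under 0.05, 3 were lower and 0 higher (15.8%), beside 5.44% lower and 10.2% higher, or 15.6% in all, over all genes. Rars2, the arginyl-tRNA synthetase, had 7.28, 7.48 and 7.46 in ionomycin-treated cells, against 8.08, 7.93 and 7.62 in naive cells. Nars2, the asparaginyl-tRNA synthetase, had 7.09, 7.35 and 7.24 in ionomycin-treated cells, against 7.48, 7.53 and 7.51 in naive cells. Neither gene overlapped between the groups, and the differences were -0.47 ± 0.13 and -0.28 ± 0.08 (SE; limma, adjusted p = 0.215 and 0.221).

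Of 15 genes of mitochondrial DNA and RNA upkeep the median was -0.07, and at an unadjusted p under 0.05 limma gave 2 higher and 0 lower (13.3%), beside 15.6% of all genes. Mtpap, the mitochondrial poly(A) polymerase, had 9.52, 9.53 and 9.53 in ionomycin-treated cells, against 9.20, 9.08 and 9.18 in naive cells. It had the lowest adjusted p of the 6 lists, with a difference of 0.37 ± 0.06 (SE; limma, adjusted p = 0.0749). Mtpap passed without both replicate 1 arrays and with the block of 2 levels (adjusted p = 0.0477 and 0.0257 in limma). Both settings were chosen after seeing the data, and they called 2.83% and 4.72% of all genes, against 0.349% in the main fit. Elac2, which cuts the 3′ ends of tRNA precursors, had 9.25, 9.32 and 9.39 in ionomycin-treated cells, against 9.15, 9.06 and 8.80 in naive cells (0.31 ± 0.10 SE; limma, adjusted p = 0.259). The groups of both genes were apart, with ionomycin arrays higher.

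Of 9 transcription factors of nuclear genes for mitochondrial proteins the median was 0.02. Gabpa, the subunit that binds the ETS core shown in capitals above, had 8.53, 8.42 and 8.41 in ionomycin-treated cells, against 8.94, 8.71 and 8.67 in naive cells. Its partner Gabpb2 had 7.71, 7.53 and 7.59 in ionomycin-treated cells, against 8.50, 7.95 and 7.81 in naive cells. Every ionomycin array of both genes lay below every naive one. Without overlap, 2 of the 9 factors were lower and 0 higher, beside 7.31% and 18.9% of all genes. At an unadjusted p under 0.05, limma gave 2 lower and 0 higher, beside 5.44% and 10.2% of all genes. The differences of Gabpa and Gabpb2 were -0.32 ± 0.09 and -0.48 ± 0.18 (SE; limma, adjusted p = 0.219 and 0.296). With the block of 2 levels Gabpa reached an adjusted p of 0.0370 in limma. That fit was chosen after seeing the data and called 4.72% of all genes.

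Beside these, 82 subunits of the respiratory chain and ATP synthase had a median difference of -0.003, with 40 above 0 and 42 below, and 38 cytosolic ribosomal proteins a median of 0.06, with 33 above 0 and 5 below. The limma test called 0 genes in either set at the adjusted threshold, beside 0.349% of all genes. At an unadjusted p under 0.05 it gave 1 and 2 genes (1.22% and 5.26%), beside 15.6% of all genes and 20.7% of genes above background. Set against all genes, whose median was 0.05, the median of the cytosolic set was 0.01 higher and that of the mitoribosome members 0.10 lower. No test of the difference between the sets was made.

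**Figure D4:**
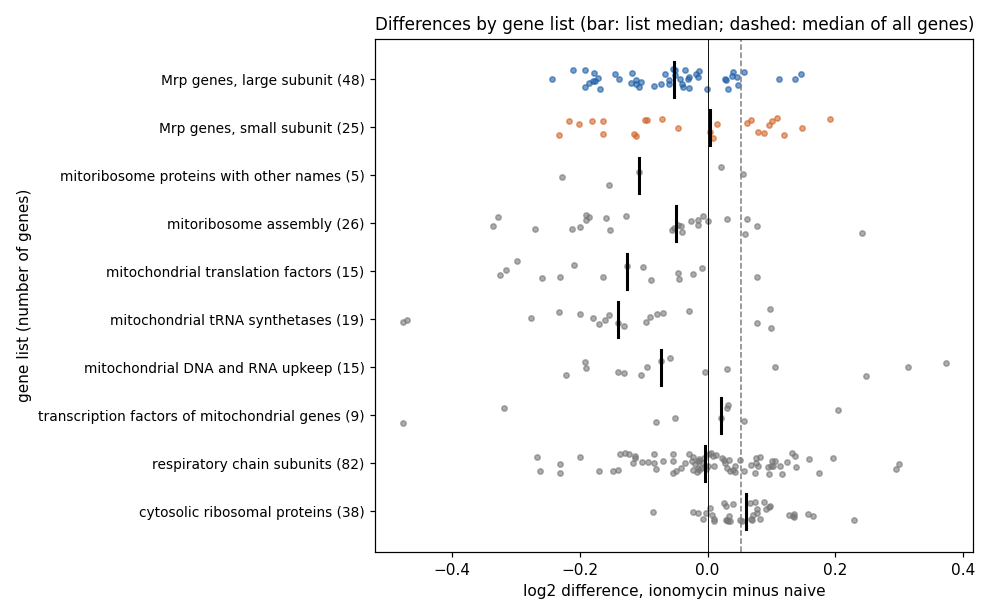
Log2 difference (ionomycin minus naive, horizontal axis) of each gene, by list, with the number of genes in brackets, a bar at the list's median and a dashed line at the median of all genes, 0.05. Large-subunit members centre on -0.05 and small-subunit members on 0.004 (-0.06 after array centring), translation factors on -0.13 and tRNA synthetases on -0.14.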

How the data were processed

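Total RNA of 6 BMMC samples was labelled with biotin and measured on whole-transcript Affymetrix arrays, per the labels' protocols. The values are the authors' deposited log2 signals, 65770 rows by 6 arrays, from 3.01 to 14.6 with 0 missing. They were made with oligo, per the submitters' processing notes; the sources used here name neither its version nor a normalization or genome build. The log2 scale follows from the range of the values, and whether arrays were centred or scaled is not known: their medians were 5.96, 6.03 and 6.03 for ionomycin replicates 1, 2 and 3, against 5.88, 5.95 and 5.99 for the naive ones. The number of arrays limits the precision.

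Rows were named through the platform annotation (30439 with 1 symbol, 2146 with several, 33185 with none), and 827 symbols were updated through Entrez IDs in the RefSeq gene table of GRCm38.p6. For each of 30102 genes the row with the highest 6-array mean was kept. Repeated mentions of one symbol in a row's annotation were counted once. Left out were 4 rows that name a member beside another gene. Pseudogene rows of members exist, and cross-hybridization was not tested.

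Sample titles gave the group and the replicate number of each array. The difference, ionomycin minus naive, was fitted over all 6 arrays without a block with lmFit and eBayes of limma 3.58.1 under R 4.3.3. Tests were two-sided, p-values of all 30102 genes were adjusted by Benjamini-Hochberg, and the threshold was 0.05. The fit was run on simulated data with independent noise on each array. Those data lack the shared deviation of replicate 1, so they do not show how the test behaves with it. Every p-value and interval for a gene is from limma. SE is the moderated standard error. Folds are 2 raised to the log2 difference. Replicate numbers are shared between the groups. Deviations from the group means correlated across genes at 0.711, 0.476 and 0.469 for the same numbers 1, 2 and 3. The crossed pairs of numbers 2 and 3 reached 0.481 and 0.524, so these values do not show which of those samples belong together. The replicate block takes same-numbered samples as pairs, which is an assumption.

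The fit was repeated with the replicate number as a block, after quantile normalization, after subtracting each array's median, over genes above background only, with the trend and robust settings of eBayes, on the mean of a gene's rows, without each array in turn, and with updated symbols. Leaving out both replicate 1 arrays, a block of 2 levels and a test over all deposited rows were chosen after seeing the data. The members and gene lists were chosen with earlier results of these data known. Named members were those without overlap between groups (up to 8 a direction), the 4 brightest, the 4 dimmest, the 3 nearest 0 and 7 of special interest (Mrpl12, Mrps12, Mrps30, Mrps18a, Mrps18b, Mrps18c and Mrps36); from each list the 2 genes with the lowest p were named. List genes without a matched row were not analysed here. Promoter windows were matched by symbol.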

Additional observations from a re-analysis of the deposited data

Results flagged for a closer look

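One array row names both Slc5a3, a sodium and myo-inositol cotransporter, and Mrps6, of the small mitoribosomal subunit, and belongs to no gene in the comparisons above. It had log2 signals of 9.95, 9.48 and 9.38 in ionomycin-treated cells, against 9.20, 8.67 and 8.66 in naive cells. All 3 ionomycin arrays lay above all 3 naive ones, and the difference of 0.76 ± 0.20 (SE) was larger than that of any of the 74 members. In limma over all 65770 rows the adjusted p was 0.271, and 0.0384 with the replicate block. The row cannot be assigned to either gene, and which of them the signal comes from was not tested.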

How the results depend on the processing

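The count of members past the adjusted threshold in limma was 0 in either direction under every alternative run. At an unadjusted p under 0.05 the 1 higher member became 2 with the replicate block, 7 after quantile normalization, 0 after centring, 0 over genes above background, 0 with trend and robust settings and 3 with the block of 2 levels, and ran from 0 to 1 with 1 array left out. The 3 lower members became 8, 6 and 6 with the replicate block, quantile normalization and centring and 10 with the block of 2 levels, and ran from 0 to 8 with 1 array left out. Of all genes, 10.2% were higher and 5.44% lower at that p in the main fit, and 16.0% and 9.41% with the replicate block. That share was not counted for the other settings, so their member counts have none to be read against. The members' median difference of -0.05 was -0.11 after centring and ran from -0.091 to 0.015 with 1 array left out. That of the large subunit was -0.12 after centring (-0.11 to 0.0040 with 1 array left out) and that of the small one -0.062 (-0.051 to 0.079). With the block of 2 levels 1 gene each passed among translation factors (Guf1), tRNA synthetases (Iars2), DNA and RNA upkeep (Mtpap) and transcription factors (Gabpa); without both replicate 1 arrays 1 passed, Mtpap. No call of a gene named from the members or lists changed with the replicate block, and that of the row shared by Slc5a3 and Mrps6 did (adjusted p = 0.0384 in limma). Over all genes, limma called 105, and 852 and 1421 without both replicate 1 arrays and with the block of 2 levels. The cause of these shifts was not tested. With 3 arrays a group, the median SE of a member's difference was 0.08.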

Other observations

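The RNA that the mitoribosome is built on was also measured, and was looked at after the other values were seen. mt-Rnr1, the rRNA of the small subunit, encoded by mitochondrial DNA, had log2 signals of 13.86, 14.01 and 13.87 in ionomycin-treated cells, against 13.92, 13.79 and 14.06 in naive cells. The groups overlapped, and the difference was -0.01 ± 0.09 (SE; limma, adjusted p = 0.941).

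Rows named for pseudogenes of members were singled out after their values were seen. Mrpl48-ps had 9.13, 9.11 and 9.0 in ionomycin-treated cells, against 8.90, 8.94 and 8.82 in naive cells. Its groups did not overlap, with ionomycin arrays higher (0.19 ± 0.07 SE; limma, adjusted p = 0.273), while its parent gene Mrpl48 differed by -0.02 ± 0.08 (SE) with overlap. Mrpl23-ps1, Mrps36-ps1 and Mrps36-ps2 differed by 0.01, -0.14 and 0.06, and the groups of all 3 overlapped.

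Another 3 rows name a member beside a second gene and can be assigned to neither. The row of Mrpl30 and Gm6238 differed by 0.02, that of Mrpl53 and Ccdc142 by -0.07, and an extra row of Mrps18b and Gm16279 by -0.10, each with overlap between the groups.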
